A study of Xenopus laevis with 4 samples.

Results

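The SoxB1 and SoxC genes encode transcription factors that bind DNA through an HMG box, the domain shared by all Sox proteins. SoxB1 proteins, Sox2 and Sox3 among them, are transcriptional activators that mark neural progenitors and hold them undifferentiated, and in Xenopus sox3 is also supplied by the egg and is widely present in early ectoderm before it narrows to the neural plate. SoxC proteins, Sox4 and Sox11 among them, are activators known in mouse and chick for switching on genes of differentiating neurons, and Xenopus sox11 is transcribed in the early neural ectoderm. Neural ectoderm forms in the gastrula where antagonists secreted by the dorsal organizer block BMP signals, which are strongest on the ventral side. The rows described here were taken by symbol, as sox2, sox3, sox4 and sox11 with the suffix .L or .S, which denotes the long or short subgenome of this allotetraploid frog. All 8 were present among the 21531 genes of the table, which held 26 sox rows in all.

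RNA was sequenced from ventral tissue of X. laevis gastrulae to learn what depends on the SoxE factor Sox8. Both groups had received mRNA of Cas7-11, a bacterial nuclease that cuts RNA at sites matched by a guide, through injection of the ventral blastomeres together with a tracer. The control group had Cas7-11 mRNA and no guides per the labels, and the sox8 CRISPR group had Cas7-11 mRNA with guides against sox8. Each group gave 2 libraries, each labelled as an embryo and described as a biological replicate, so p-values measure the spread between these libraries alone. No strain or embryo sex is stated, and no separation of injected from uninjected cells is described.

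The guides define the only labelled difference between the groups, so their spacers are given 5′ to 3′ as DNA letters. All letters are capitals because the whole spacer was designed to pair with the 3′ UTR of sox8, a pairing not checked here.
G1 against sox8: TATTATGGCATTATAGTCCTTCA
G2 against sox8: AAAATCCTCAGTTTATCAGCAGG
G3 against sox8: AGAATCAGAATTGTTGGTCTGGT
Their likeness to the transcripts of the SoxB1 and SoxC genes was not tested, since transcript sequences were not used here.

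The targeted gene sox8.L had 508 and 927 normalized counts in control 1 and control 2, and 26.9 and 25.4 in sox8 CRISPR 1 and sox8 CRISPR 2. A normalized count is the number of reads on a gene divided by a size factor of its library. sox8.L fell under the guides, with a log2 fold change of -4.66 (SE 0.97, limma adjusted p = 0.0436). Its homeolog sox8.S stood at 14.1 and 43.7 normalized counts in control 1 and control 2, at 134 in sox8 CRISPR 1 and at 0 in sox8 CRISPR 2, so its groups overlapped (limma adjusted p = 0.925). The libraries held between 18189895 and 24108577 reads on genes, and sox8 CRISPR 2 listed 3862 genes at 0 against 667 to 1290 in the other libraries. Replicates differed by more than 1 on the log2 scale in 49.8% of genes for the controls and 61.1% for sox8 CRISPR.

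In all 4 SoxB1 rows, both sox8 CRISPR libraries stood above both controls, a pattern shown by 17% of all genes. Of the SoxC rows, 3 of 4 had both sox8 CRISPR libraries below both controls, as did 19.1% of all genes, and sox4.L overlapped. Past the fold of 0.58 on the log2 scale, all 4 SoxB1 rows were on the higher side with 29.7% of all genes, and all 4 SoxC rows on the lower side with 37.6%. The median log2 fold change was 1.82 over the SoxB1 rows and -1.72 over the SoxC rows, against -0.16 over all genes. The SoxC median depends on sox8 CRISPR 2, in which both sox4 rows stood at 0. Without that library the SoxC values were 0.67 for sox4.L, -1.71 for sox4.S, -0.59 for sox11.L and -0.47 for sox11.S. None of the differences of the 8 rows passed the test. Of the 8 rows, 0 had an adjusted p under 0.05 together with an absolute log2 fold change over 0.58 in limma, a linear model fitted to the log2 values of all genes, against 0.334% of all genes (72 genes). At an unadjusted p under 0.05 stood 3 of the 8 rows (sox3.L, sox3.S and sox4.S) and 6.79% of all genes. edgeR's quasi-likelihood test, run on whole reads recovered from the normalized counts, also called 0 of the 8 rows against 0.627% of all genes. At an unadjusted p under 0.05 edgeR had 2 rows and 1478 of the 21531 genes. DESeq2's Wald test called 0 against 2.33% of the 18191 genes to which it gave an adjusted p. At an unadjusted p under 0.05 DESeq2 had 3 rows and 2062 of the 21531 genes. An exact permutation test of a single gene could not have gone below p = 0.333 with 2 libraries per group.

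**Figure D1:**
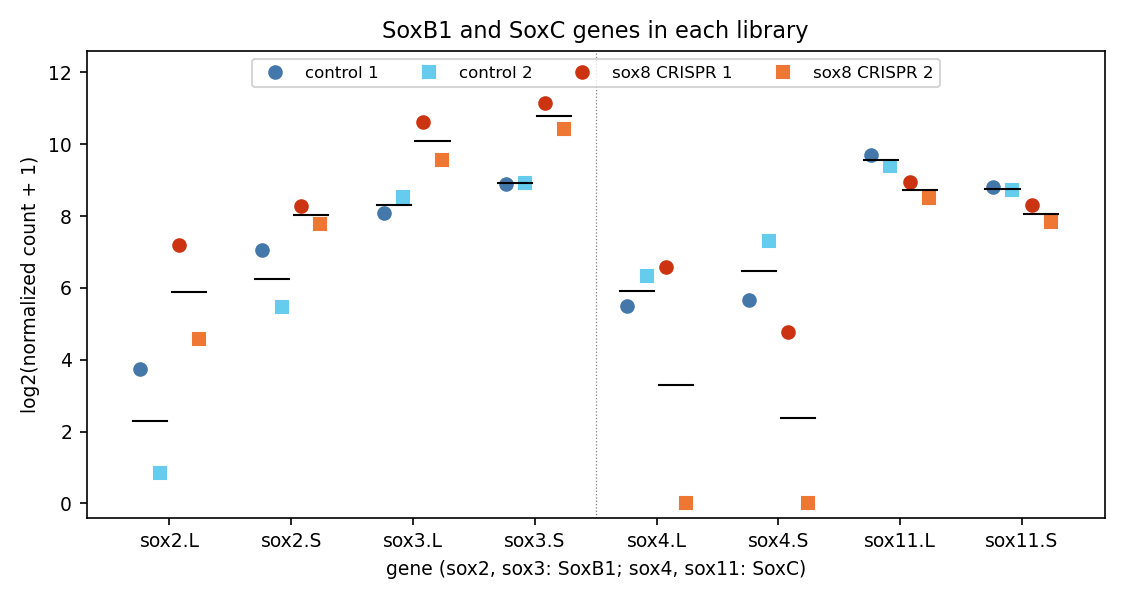
Each point is 1 library, on a vertical axis of log2(normalized count + 1), for the 8 SoxB1 and SoxC genes along the horizontal axis, and each black line is the mean of the 2 libraries of a group. Both sox8 CRISPR points lie above both control points for sox2.L, sox2.S, sox3.L and sox3.S, and sox8 CRISPR 2 lies at 0 for sox4.L and sox4.S.

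Among the SoxB1 genes, sox3 was the more abundant. In X. laevis v10.1, the assembly to which the reads were aligned, sox3.S spans 63299041 to 63300658 of chromosome 8S and sox3.L spans 46991470 to 46993062 of chromosome 8L. Normalized counts of sox3.S were 476 and 483 in controls 1 and 2, and 2269 and 1358 in sox8 CRISPR 1 and 2. The controls were nearly equal, and the lower sox8 CRISPR library was 2.81-fold above the higher control, whereas the sox8 CRISPR libraries differed 1.67-fold from each other. The group means were 479.8 ± 4.94 and 1814 ± 644 normalized counts (SD, n = 2 each), a ratio of 3.78. On the log2(normalized count + 1) scale the fold change was 1.87 (SE 0.71, 95% confidence interval 0.39 to 3.35, limma adjusted p = 0.584). Ranked by p over all 21531 genes, sox3.S stood at place 605.

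sox3.L had 270.2 and 369.6 normalized counts in controls 1 and 2, and 1563 and 752 in sox8 CRISPR 1 and 2. Both sox8 CRISPR libraries again lay above both controls, with sox8 CRISPR 1 the highest. The gap between the groups was 2.03-fold at its narrowest, slightly less than the 2.08-fold difference between the sox8 CRISPR libraries. The group means of 319.9 ± 70.3 and 1157 ± 574 (SD, n = 2 each) stood in a ratio of 3.62. The log2 fold change of sox3.L was 1.78 (SE 0.74, 95% confidence interval 0.22 to 3.33, limma adjusted p = 0.673).

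The sox2 homeologs were scarcer, sox2.L above all. sox2.S had 133 and 42.9 normalized counts in controls 1 and 2, and 307 and 219 in sox8 CRISPR 1 and 2. Its sox8 CRISPR libraries were above both controls, but the controls differed 3.09-fold from each other while the narrowest gap between the groups was 1.65-fold. The log2 fold change of sox2.S was 1.76 (SE 0.99, 95% confidence interval -0.31 to 3.84, limma adjusted p = 0.789). sox2.L, a gene of 1190 bases from 114959594 to 114960783 on chromosome 5L, had 12.49 and 0.795 normalized counts in the controls against 147 and 23.0 in the sox8 CRISPR libraries. These values came from 8, 1, 235 and 19 reads in the same order of libraries, so control 2 was below the floor of 3 reads. Each group spanned a wide range, 15.7-fold between the controls and 6.39-fold between the sox8 CRISPR libraries. The log2 fold change of sox2.L was 3.60 (SE 1.90, 95% confidence interval -0.40 to 7.59, limma adjusted p = 0.768).

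Within SoxC, sox11 held most of the reads. sox11.L, from 146817422 to 146818996 on chromosome 5L, had 837 and 668 normalized counts in controls 1 and 2, and 496 and 361 in sox8 CRISPR 1 and 2. Both sox8 CRISPR libraries were below both controls, by 1.35-fold at the narrowest, with 1.25-fold between the controls and 1.37-fold between the sox8 CRISPR libraries. The log2 fold change of sox11.L was -0.82 (SE 0.72, 95% confidence interval -2.34 to 0.70, limma adjusted p = 0.860). sox11.S, from 123543787 to 123546425 on chromosome 5S, stood at 447 and 419 normalized counts in the controls against 313 and 228 in the sox8 CRISPR libraries. Its groups were likewise separate, by 1.34-fold at the narrowest, with replicates 1.07-fold apart in the controls and 1.37-fold apart in sox8 CRISPR. The log2 fold change of sox11.S was -0.69 (SE 0.77, 95% confidence interval -2.31 to 0.93, limma adjusted p = 0.885). For both homeologs the interval held 0, and control means exceeded sox8 CRISPR means 1.76-fold for sox11.L and 1.60-fold for sox11.S.

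The sox4 genes had reads in 3 of the 4 libraries and none in sox8 CRISPR 2. sox4.S, from 81628505 to 81632309 on chromosome 6S, had 49.97 and 156 normalized counts in controls 1 and 2, 26.2 in sox8 CRISPR 1 and 0 in sox8 CRISPR 2. Both sox8 CRISPR libraries were below both controls, and 0 reads in sox8 CRISPR 2 allow up to 3.63 normalized counts, the value of 3 reads there. The log2 fold change of sox4.S was -4.10 (SE 1.89, 95% confidence interval -8.07 to -0.12, limma adjusted p = 0.720). Without sox8 CRISPR 2 it was -1.71, without sox8 CRISPR 1 it was -6.48, and DESeq2 on the recovered reads gave -2.95. sox4.L, from 100511919 to 100515776 on chromosome 6L, had 43.7 and 79.5 normalized counts in the controls, 94.3 in sox8 CRISPR 1 and 0 in sox8 CRISPR 2. The highest and the lowest value of sox4.L were thus both in sox8 CRISPR, and the groups overlapped. Its log2 fold change was -2.62 (SE 1.98, 95% confidence interval -6.79 to 1.55, limma adjusted p = 0.842), but 0.67 without sox8 CRISPR 2 and -0.38 in DESeq2. That library listed many other genes at 0 as well, and the part of this in the sox4 values was not tested.

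**Figure D2:**
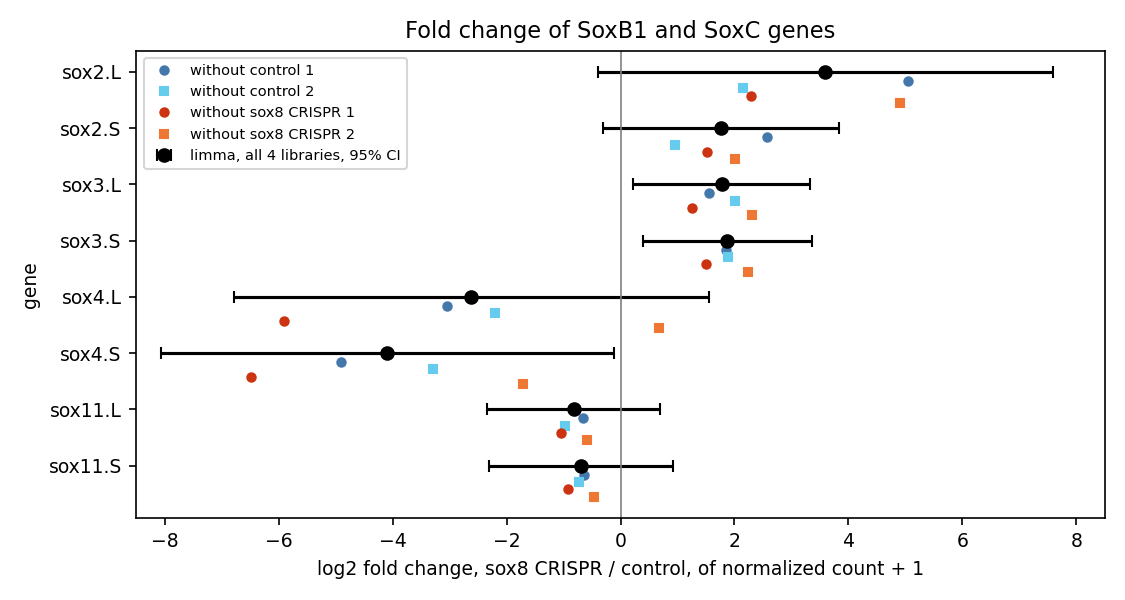
The horizontal axis is the log2 fold change of normalized count + 1, sox8 CRISPR over control, for each of the 8 genes. Black points and bars are the limma estimate from 4 libraries with its 95% confidence interval, and small points are the estimate without 1 library, which for sox4.L runs from -5.91 to 0.67 and for sox11.L from -1.05 to -0.59.

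The fold changes of sox3 and sox11 kept their direction over the 14 fits, but their size moved. Fits that changed only the gene filter, the variance model or a replicate block gave the main estimate again, so they could not turn a direction. Where the groups are separate, as in every row but sox4.L, a left-out library or another pseudocount could not turn it either. sox3.S ranged from 1.50 to 2.24, sox3.L from 1.25 to 2.30, sox11.L from -1.05 to -0.59 and sox11.S from -0.92 to -0.47. The ranges of the scarcer rows were wider, from 0.96 to 2.57 for sox2.S and from 2.14 to 5.05 for sox2.L. Those of sox4 were the widest, from -6.48 to -1.71 for sox4.S and from -5.91 to 0.67 for sox4.L. Over these fits the adjusted p of sox3.S lay between 0.177 and 0.999, and 0 of the 112 estimates for the 8 rows passed the threshold. A crossed pairing of replicates, tried after seeing the data, is not among the 14. It called sox3.S and 776 of all 21531 genes, against 72 without the pairing. Leaving out sox8 CRISPR 2, the library with the most genes at 0, left 4 SoxB1 rows above the controls and 3 SoxC rows below them. The shares of all genes were 37.9% and 32.2%. Rows separated with 4 libraries stay separated when 1 is left out, so these counts could not fall and add no support. Scaling by quantiles shifted the all-gene median by 0.14 on the log2 scale, and it turned the direction of none of the 8 rows.

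Summed over sox2 and sox3, SoxB1 counts were 892 and 897 in controls 1 and 2, and 4286 and 2352 in sox8 CRISPR 1 and 2. Summed over sox4 and sox11, SoxC counts were 1377 and 1322 in the controls against 929 and 589.8 in the sox8 CRISPR libraries. The order of the subfamilies was therefore opposite in the groups. The ratio of SoxB1 to SoxC counts was 0.647 and 0.678 in the controls against 4.61 and 3.99 in the sox8 CRISPR libraries. SoxB1 made up 5.83% and 7.19% of the counts of the 26 sox rows in the controls against 33.4% and 16.98% in the sox8 CRISPR libraries, while SoxC made up 9.01% and 10.6%, then 7.23% and 4.26%. These sums are not corrected for gene length, and they were not tested.

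**Figure D3:**
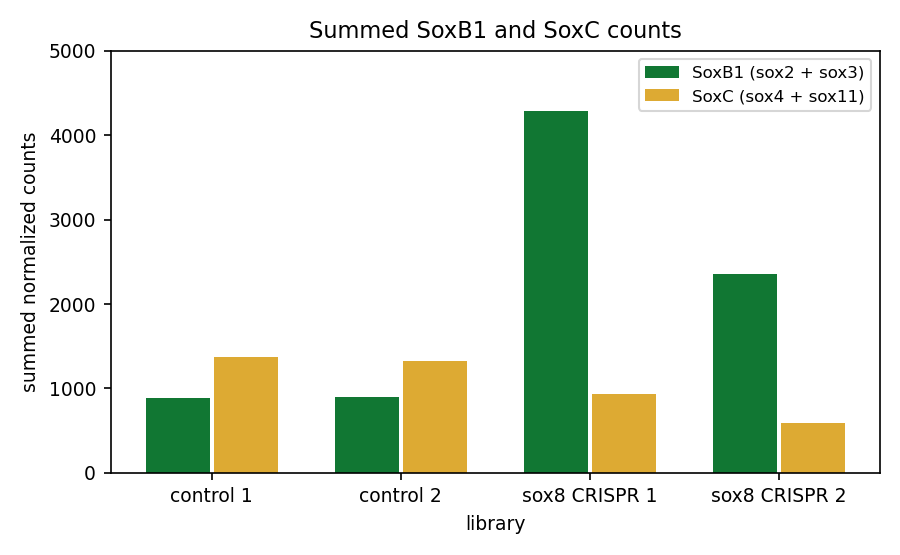
Bars give summed normalized counts per library on the vertical axis, green for SoxB1 (sox2 and sox3) and yellow for SoxC (sox4 and sox11). SoxC bars exceed SoxB1 bars in both controls (1377 over 892 and 1322 over 897), and SoxB1 bars exceed SoxC bars in both sox8 CRISPR libraries (4286 over 929 and 2352 over 589.8).

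Levels were compared between genes per kb of the annotated gene span, which was known for 7 of the 8 rows and not for sox2.S. In both controls sox11.L led, with 531 and 424 normalized counts per kb, ahead of sox3.S with 294 and 299. Then came sox3.L with 169.6 and 232 and sox11.S with 169.2 and 159 normalized counts per kb, neighbours that differed in control 1 by less than the spread between the controls. Without division by span their order was opposite in both controls, with sox11.S at 447 and 419 normalized counts and sox3.L at 270 and 370. sox4.S, sox4.L and sox2.L all stood lower, the highest at 40.9 normalized counts per kb in control 2, and the sox4 homeologs overlapped over the controls. In sox8 CRISPR the order at the top differed: sox3.S led with 1403 and 840 normalized counts per kb, then sox3.L with 981 and 472, then sox11.L with 315 and 229. The sox3 homeologs overlapped there, since sox3.L of sox8 CRISPR 1 lay above sox3.S of sox8 CRISPR 2. sox2.L, with 123 and 19.3 normalized counts per kb there, overlapped with sox11.S at 119 and 86.6. Measured against every gene of the same library and without length correction, sox3.S was at percentile 77.2 and 76.0 in the controls against 94.3 and 88.1 in the sox8 CRISPR libraries, and sox11.L at 83.6 and 80.6, then 77.6 and 72.3.

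Homeologs gave a view of each gene from separate loci, though near-identical stretches can share reads and the handling of such reads is not given in the sources used here. In 3 of the 4 pairs, both homeologs lay beyond both controls in the same direction, against 13.3% of the 5640 pairs in the table. With homeologs summed, the log2 fold change was 1.83 for sox3 (SE 0.69, limma adjusted p = 0.507), 2.04 for sox2 (SE 0.96, limma adjusted p = 0.694), -0.77 for sox11 (SE 0.69, limma adjusted p = 0.855) and -3.76 for sox4 (SE 1.80, limma adjusted p = 0.704). Summing thus brought no gene past the threshold.

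Within the abundant pairs, the share of reads on the L homeolog varied less over the libraries than in the scarce pairs. Of the sox11 reads, the L homeolog took 65.2% and 61.4% in the controls and 61.3% in each sox8 CRISPR library. Of the sox3 reads, it took 36.2% (95% Wilson interval 32.0 to 40.6) in control 1, 43.3% (40.4 to 46.3) in control 2, 40.8% (39.6 to 42.0) in sox8 CRISPR 1 and 35.6% (33.4 to 37.9) in sox8 CRISPR 2. The groups overlapped for sox3, and the intervals, which cover counting error only, barely met between the controls. The change of the log2 ratio of L to S was -0.09 for sox3 (95% confidence interval -1.34 to 1.15, limma adjusted p = 0.971) and -0.13 for sox11 (-1.58 to 1.32, limma adjusted p = 0.967). Intervals of this width leave room for a more than 2-fold shift in either direction for both pairs.

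The scarce pairs varied more. For sox2, the L share was 8.60% (95% Wilson interval 4.42 to 16.1) in control 1, 1.82% (0.322 to 9.61) in control 2, 32.4% (29.1 to 35.9) in sox8 CRISPR 1 and 9.50% (6.17 to 14.4) in sox8 CRISPR 2. Only sox8 CRISPR 1 stood apart, since the interval of sox8 CRISPR 2 overlapped with those of both controls. For sox4, the L share was 46.7% (34.6 to 59.1) and 33.8% (28.6 to 39.3) in controls 1 and 2 and 78.2% (71.9 to 83.5) in sox8 CRISPR 1, and sox8 CRISPR 2 had no sox4 reads. The fitted difference of the log2 ratio of L to S between groups was 1.83 for sox2 (SE 1.66, limma adjusted p = 0.780). For sox4, sox8 CRISPR 2 has no such ratio, so no test is given, and the difference between sox8 CRISPR 1 and the control mean was 2.38. Over all 5640 pairs the ratio was called in 0 (0%), with 7.15% at an unadjusted limma p under 0.05.

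**Figure D4:**
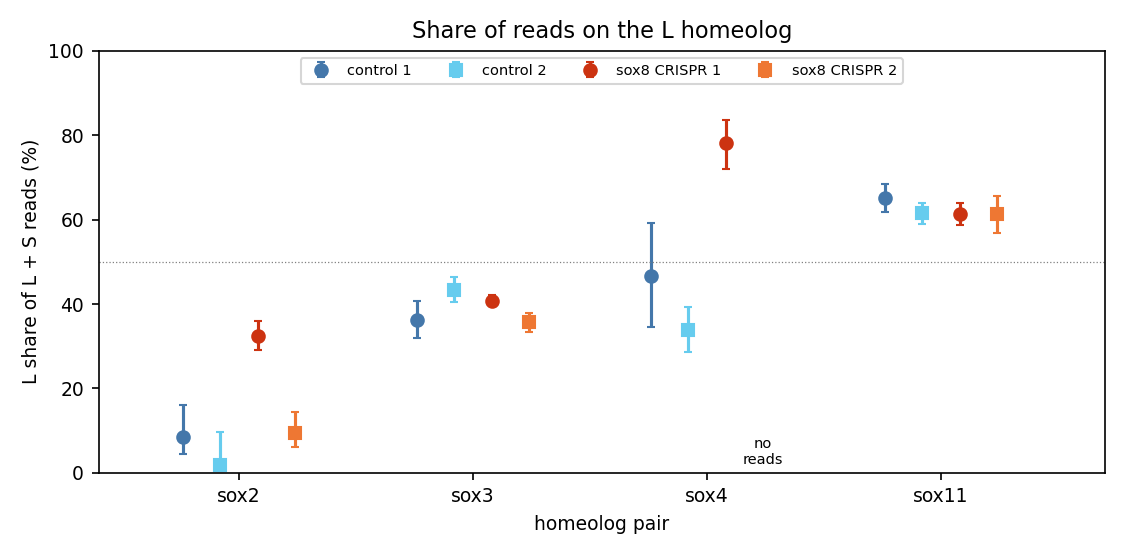
The vertical axis is the percentage of a pair's reads that fell on the L homeolog, for sox2, sox3, sox4 and sox11, 1 point per library with its 95% Wilson interval, which covers counting error only. The sox11 points lie between 61.3% and 65.2%, and sox8 CRISPR 1 is the highest point for sox2 (32.4%) and sox4 (78.2%).

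The profile of sox3.S over the 4 libraries was matched most closely by krt18.1.L, a keratin of simple epithelia that is also among the epidermis markers, ddit4.S, a stress-induced inhibitor of mTOR signalling, and atp6v0a1.S, a subunit of the vacuolar proton pump. Likeness was the mean absolute difference of centred log2 values, 0.0588 for krt18.1.L, 0.0866 for ddit4.S and 0.0927 for atp6v0a1.S, among 13711 genes with a mean normalized count of 50 or more. krt18.1.L had 1380.5 and 1471 normalized counts in the controls against 7393 and 3950 in the sox8 CRISPR libraries. Within 0.2 of sox3.S lay 25 genes. For sox11.L the closest genes were rae1.L (0.0296), which serves mRNA export, pgrmc2.S (0.0417), a haem-binding membrane protein, and rrp8.S (0.0474), which methylates ribosomal RNA, and 284 genes lay within 0.2. With 4 libraries, likeness of profile is a description only.

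Of the 18 rows of other sox genes, 1 was above and 4 were below both controls in both sox8 CRISPR libraries, against 17% and 19.1% of all genes, with a median log2 fold change of -1.59. sox1.L, the other SoxB1 gene, had 0 and 11.1 normalized counts in the controls against 16.9 and 0 in the sox8 CRISPR libraries, too few for a direction. The most abundant of these rows was sox13.S, at 8194 and 6454 normalized counts in the controls against 3550 and 8010 in the sox8 CRISPR libraries, and sox15.L had 3014 and 2092, then 2599 and 1986. Both overlapped between groups. The single row above the controls, sox17a.L, an endoderm factor, had 178 and 62.8 normalized counts in the controls against 634 and 754 in the sox8 CRISPR libraries (limma adjusted p = 0.338). limma called sox8.L alone in the list, against 0.334% of all genes (0.627% in edgeR and 2.33% of those with an adjusted p in DESeq2). edgeR and DESeq2 also called sox9.S, a SoxE gene like sox8, which had 309 and 506 normalized counts in the controls against 8.12 and 0 in the sox8 CRISPR libraries (log2 fold change -7.04, limma adjusted p = 0.0727).

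Genes that work with SoxB1 proteins or share their tissue were counted beside them. POU-domain factors pair with SoxB1 proteins on DNA, and 5 of their 7 rows were above both controls in both sox8 CRISPR libraries, against 17% of all genes, with a median log2 fold change of 1.21. limma, edgeR and DESeq2 each called 0 of them, against 0.334%, 0.627% and 2.33% of the genes to which each gave an adjusted p. In limma 1 had an unadjusted p under 0.05, as did 6.79% of all genes. pou5f3.2.L, a pluripotency factor related to mammalian Oct4, had 1076 and 1924 normalized counts in the controls against 7824 and 2497 in the sox8 CRISPR libraries (log2 fold change 1.62, limma adjusted p = 0.742). For its homeolog pou5f3.2.S the values were 422 and 253, then 1659.7 and 642, a log2 fold change of 1.66 with a limma adjusted p of 0.720. The groups were separate for both, as they were for pou5f3.3.L with 49.97 and 78.7, then 105 and 81.0.

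Of 28 rows for other early neural genes, 13 were above and 1 was below both controls in both sox8 CRISPR libraries, against the same shares of all genes, with a median log2 fold change of 1.66, and 4 were called, all higher (0.144% of all genes were called higher). foxd4l1.1.S, a forkhead factor that keeps Xenopus neural ectoderm immature, rose from 65.6 and 251 normalized counts to 4783 and 3315 between controls and sox8 CRISPR, a log2 fold change of 4.94 (limma adjusted p = 0.00613). Its homeolog foxd4l1.1.L rose from 201 and 397 to 5897 and 3418, and foxd4l1.2.L from 56.2 and 38.9 to 1622 and 694 (limma adjusted p = 0.0171 and 0.0254). zic2.S, a zinc-finger factor of the neural plate, rose from 45.3 and 16.7 normalized counts to 1091 and 668, a log2 fold change of 4.90 with a limma adjusted p of 0.0273. In each of these 4 rows both sox8 CRISPR libraries lay above both controls, and each log2 fold change was larger than that of either sox3 row.

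The most abundant neural rows did not separate the groups. gmnn.S, which encodes the replication inhibitor geminin and is also supplied by the egg, had 24638 and 7651 normalized counts in the controls against 10432 and 46465 in the sox8 CRISPR libraries, and gmnn.L had 12401 and 3219, then 5551 and 17682. All 28 neural rows summed to 39168 and 15697 normalized counts in the controls against 36707 and 76692 in the sox8 CRISPR libraries. The groups thus overlapped in the full sum. Without the gmnn rows, the other 26 neural rows summed to 2129 and 4827 in the controls against 20724 and 12544 in the sox8 CRISPR libraries. At 0 stood 5 and 6 of the 28 rows in the controls, 0 in sox8 CRISPR 1 and 9 in sox8 CRISPR 2. Among 6 rows of differentiating neurons, several of them SoxC targets in mouse or chick, 1 was above both controls and 3 were below. The shares of all genes were 17% and 19.1%. Above was elavl3.L, an RNA-binding protein. Below were dll1.L and dll1.S, ligands of Notch, and neurod4.S, a neuronal differentiation factor. neurod4.S had only 4.68 and 31.8 normalized counts in the controls against 0 in both sox8 CRISPR libraries. The median log2 fold change of the 6 rows was -0.74. limma, edgeR and DESeq2 called 0 of these 6, against 0.334%, 0.627% and 2.33% of the genes to which each gave an adjusted p. In limma 1 had an unadjusted p under 0.05, as did 6.79% of all genes.

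**Figure D5:**
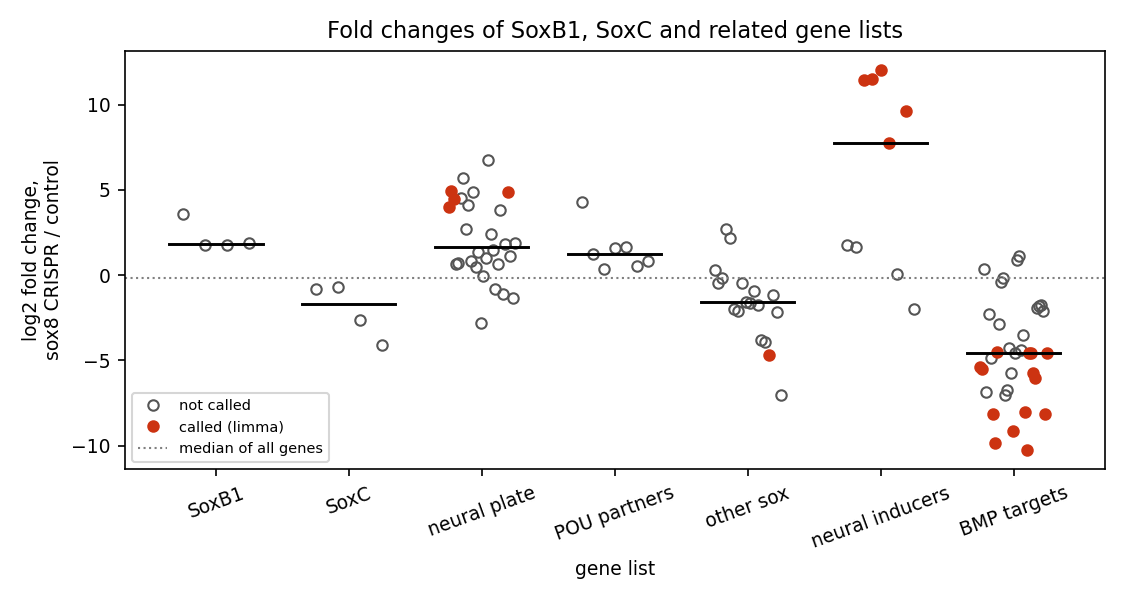
Each point is 1 gene and the vertical axis is its log2 fold change, sox8 CRISPR over control, with filled points called by limma, a black line at the median of each list and a dotted line at the median of all genes (-0.16). The medians are 1.82 for SoxB1, -1.72 for SoxC, 1.66 for other neural plate genes, 1.21 for POU partners, -1.59 for other sox genes, 7.73 for secreted neural inducers and -4.56 for BMP targets. The SoxC median depends on sox8 CRISPR 2, in which both sox4 rows stood at 0.

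BMP signals and their antagonists, which position the neural plate in the embryo, were counted in the same libraries. Of 9 rows for secreted BMP antagonists, which induce neural ectoderm, limma called 5 higher, against 0.144% of all genes. These were nog.L, fst.L, chrd.2.L and both homeologs of chrd.1. The list summed to 364 and 136 normalized counts in the controls against 46350.0 and 5695 in the sox8 CRISPR libraries. Of 34 rows for transcriptional targets of BMP, limma called 14 lower and 0 higher, against 0.19% and 0.144% of all genes. In both sox8 CRISPR libraries, 30 rows were below both controls and smad6.S was above, against 19.1% and 17% of all genes. The rows called lower were those of ventx1.2, ventx1, ventx3.2, szl, bambi and gata2, each with both homeologs, and msx2.L and id2.L. Of 11 rows for BMP ligands, limma called bmp4.S lower and admp.L higher, against 0.19% and 0.144% of all genes. Below both controls in both sox8 CRISPR libraries were 4 rows, the homeologs of bmp4 and of bmp7.1. Above them were 2, admp.L and bmp7.2.S, against 19.1% of all genes below and 17% above.

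Markers of the tissues that the dissected piece could hold were counted in the same libraries as well. In a bulk library, fewer cells of a type and less RNA per cell cannot be told apart. All 20 rows for ventral and lateral mesoderm, the labelled tissue, were below both controls in both sox8 CRISPR libraries, against 19.1% of all genes, with 11 called lower against 0.19% (evx1.L, hoxa9.L, bmp4.S and both homeologs of ventx1, ventx1.2, szl and bambi), and their sum was 57806 and 66907 normalized counts in the controls against 4735 and 8237 in the sox8 CRISPR libraries. Of these 20 rows, 12 had been counted among the BMP targets and 2 among the BMP ligands. The 23 organizer rows share chrd, nog and cer1 with the antagonists and otx2 with the neural list. Of the 23, 17 were above both controls in both sox8 CRISPR libraries, against 17% of all genes. limma called 8 higher, against 0.144% of all genes. These were frzb.L, both homeologs of foxa4, admp.L and the called chrd and nog rows above. The organizer sum was 1229 and 1549, then 89360.0 and 12098. Both controls listed chrd.1.L, chrd.2.L, shh.L, shh.S and otx2.L at 0. admp.S stood at 0 in both controls and in sox8 CRISPR 2, and at 2294 normalized counts in sox8 CRISPR 1. For mesoderm as a whole, 8 of 16 rows were above and 4 below both controls, against 17% and 19.1% of all genes. Their sums were 90111 and 114839, then 111219 and 132108. Of these 16 rows, limma called 0, against 0.334% of all genes, and 8 had an unadjusted limma p under 0.05, as did 6.79% of all genes. edgeR called 0 of them, against 0.627% of all genes. DESeq2 called 3, against 2.33% of the genes to which it gave an adjusted p.

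Lists for the other ectoderm and for endoderm were counted in the same way, beside 17% of all genes above and 19.1% below both controls. Of 18 rows for epidermis, 3 were above and 5 below both controls in both sox8 CRISPR libraries, with sums of 6662 and 4022 normalized counts in the controls against 22395 and 17799 in the sox8 CRISPR libraries. Most of these counts came from krt18.1.L and krt18.1.S, and the other 16 rows summed to 1832 and 1333 in the controls against 1359 and 793, so their groups overlapped. The epidermis list shares dlx3 and dlx5 with the BMP targets. Of 17 rows for neural border and crest, 9 were above and 3 below, with sums of 1309 and 2643, then 4893 and 2774. That list shares msx1 with the BMP targets, zic1 with the neural list and tfap2a with the epidermis list, and msx1.L and msx1.S are among its rows below. Of 17 endoderm rows, which include the sox17a and sox17b.1 rows of the other sox list, 2 were above and 3 below, with sums of 1232 and 932, then 3188 and 1413. limma called 0 rows in each of these 3 lists, against 0.334% of all genes. At an unadjusted limma p under 0.05 stood 5 epidermis, 6 border and 5 endoderm rows, and 6.79% of all genes. edgeR called 2, 3 and 1 rows of the lists in that order, against 0.627% of all genes. DESeq2 called 4, 6 and 2, against 2.33% of the genes to which it gave an adjusted p. The part of these cell types and signals in the SoxB1 and SoxC values was not tested.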

How the data were processed

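Total RNA of ventral tissue was made into Smart-seq2 libraries, in which polyadenylated RNA is amplified by PCR without molecular identifiers, and sequenced for 2 control and 2 sox8 CRISPR samples. The authors trimmed reads with cutadapt 4.4, removed ribosomal RNA reads, aligned to X. laevis v10.1 with HISAT2 2.2.1, counted reads per gene with featureCounts 2.0.6, dropped genes with a mean under 5 and divided the counts by DESeq2 size factors. Strand use in counting is not given in the sources used here. The deposited signal is thus a normalized count, and in units of 1 read of the library, 100% of values came out whole (within 0.01). The table held 0 other columns with values. Groups came from the sample titles.

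Genes were fitted by limma 3.58.1 (R 4.3.3) after a pseudocount of 1 was added and the log2 taken, with an intensity trend, two-sided, and p-values adjusted by Benjamini and Hochberg across the table. The pseudocount understates changes of low genes, but a mean of log2 values can exceed a count-based change where 1 library stands at 0. For sox4.L the log2 fold change was -2.62 in limma and -0.38 in DESeq2. Called genes had an adjusted p under 0.05 and differed by over 0.58 in log2. The ratio of homeologs was fitted likewise over 5640 pairs, in log2, with a call at an adjusted p under 0.05. In simulated data the limma fits were tested for recovery of known changes, and the ratio fit called more unchanged pairs than its adjusted p allows when other pairs changed strongly. Gene positions came from RefSeq, which matched 92.1% of symbols and 7 of the 8 members.

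Alternatives were pseudocounts of 0.5 and 5, a mean of 20 or more, TMM and quantile scaling, no trend, a replicate block, leaving out each library, edgeR 4.0.16 and DESeq2 1.42.0 on recovered reads, the fold alone, an adjusted p under 0.1, and, chosen after seeing the data, a crossed block, counts of separated rows without each library, and epidermis sums without krt18.1. Neural sums were also taken without the gmnn rows, the most abundant of that list. The members and lists were chosen with earlier results of these data known. Named are all members, the target, called genes of each list, the 3 most abundant genes of the neural, sox and partner lists, and the 3 genes most like the leading member of each subfamily. Other named genes were chosen after their values were seen: those listed at 0, sox1.L, sox9.S, the krt18.1 rows and the rows of differentiating neurons. So were smad6.S, bmp7.2.S, bmp4.L, the homeologs of bmp7.1 and the msx1 rows. Genes that lists share were named for that reason.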

Additional observations from a re-analysis of the deposited data

How the results depend on the processing

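Of 168 alternatives for single genes and pairs, 165 kept the direction. The exceptions were sox4.L, at 0.67 on the log2 scale without sox8 CRISPR 2 (-5.91 to 0.67 with 1 library left out), and the log2 ratio of L to S of sox3, at 0.12 without control 2 and 0.06 without sox8 CRISPR 2 (-0.31 to 0.12). A mean of 20 or more, no intensity trend and the replicate and crossed blocks returned the main estimate, so they could not turn a direction. Where the groups are separate, leaving out 1 library could not turn a direction either. The groups are separate for every row but sox4.L and every ratio but that of sox3. Another pseudocount could not turn those rows either. Summed homeologs were counted once for each row of a pair. The number of genes called over the table was 72 and moved more than that of the members: it was 153 with a pseudocount of 5, 199 with quantile normalization, 0 without an intensity trend (1450 at an unadjusted p under 0.05), 135 with edgeR, 423 with DESeq2, 14493 by fold alone and 118 at an adjusted p under 0.1. Leaving out 1 library gave 0 calls in each case (510 to 3972 genes at an unadjusted p under 0.05), where the lone library of a group is assumed to vary like the other group. Of the 8 members, fold alone passed 8, and every other alternative except a crossed pairing passed 0. Ratios of homeologs were called in 0 of 5640 pairs, in 38 with a replicate block and in 0 to 752 with 1 library left out (752 without sox8 CRISPR 1 and 2 without sox8 CRISPR 2). The labels number the replicates but do not say that a number is shared. Deviations from the group means correlated at -0.22 over genes between samples of the same number, and the replicate block called 86 genes and 0 members, with an adjusted p of 0.999 for every member. A crossed pairing, chosen after seeing the data, called 776 genes and 1 member. The sox4 ratio is among these alternatives although sox8 CRISPR 2 has no sox4 reads. The values of sox2.L rest on 1 to 235 reads, and 2 libraries per group limit all values. The cause of these shifts was not tested.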
